A study of Mus musculus with 12 samples.

Results

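Notch signalling was followed through 10 genes chosen by name from the 23406 genes of the deposited expression table. They are the receptors Notch1, Notch2, Notch3 and Notch4, the ligands Jag1, Jag2, Dll1 and Dll4, and the target genes Hes1 and Hey1. The libraries are bulk total RNA from mouse mammospheres, spheres grown in suspension from mammary gland cells, taken at the second passage and all on the C57BL/6J background. There were 4 groups of 3 libraries: 12-month-old p66Shc knockout mice (KO, written Shc1p66KO in the labels), 2-month-old KO mice, 12-month-old wild-type mice (WT) and 2-month-old WT mice. p66Shc is the longest of the proteins made from the adaptor gene Shc1, and the shorter ones share most of its sequence. The labels do not say whether each library stands for 1 animal, so the p-values below measure the spread among these libraries, which may be partly technical. The sources used here do not give how the knockout was made or in which cells it acts.

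Notch receptors are membrane proteins that are cut when a ligand on a neighbouring cell binds them. The freed inner part enters the nucleus, joins RBPJ and Mastermind proteins on DNA and switches on genes of the Hes and Hey families, which code for transcriptional repressors. In the mammary gland the pathway is known for its part in the choice between basal and luminal epithelial fates and in the vessels of the stroma, where DLL4 marks sprouting and arterial endothelium.

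Library depth ran from 31845169 to 109079737 reads, recovered from the deposited values, and 3 reads stood for 0.0290 to 0.0859 CPM, read counts scaled to library size. Summed over lists of cell type markers, fibroblast genes were the highest list in every library (6791 to 11568 CPM), against 378 to 4326 CPM for 15 luminal epithelial genes and 205 to 618 CPM for 12 basal genes, so the RNA of these libraries was not epithelial alone. None of the luminal or endothelial markers was without a read in any library, and of the basal markers Cnn1 was without one in at least 1 library. Shc1, over all its transcripts, averaged 169.9 ± 7.60 CPM in 12-month KO, 208 ± 0.329 in 2-month KO, 211 ± 8.44 in 12-month WT and 296 ± 25.3 in 2-month WT (SD, n = 3 each). The log2 difference of KO from WT was -0.31 at 12 months (adjusted p 0.000593). It was -0.50 at 2 months (adjusted p 0.000133). The labels name a knockout of 1 of the gene's proteins, so its summed level checks them only in part.

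Levels were first compared between genes as CPM per kilobase of each gene's longest annotated transcript. Notch2 was the highest of the 10 genes in all 4 groups, with a mean of 32.1 CPM per kb in 12-month KO, 21.3 in 2-month KO, 19.0 in 12-month WT and 29.4 in 2-month WT. In 2-month KO its libraries overlapped with those of Jag1, the next gene (19.3 CPM per kb). Hes1 and Jag1 filled the next places in every group and overlapped with each other in both 12-month groups. Jag2 was the lowest gene in 12-month KO (0.347 CPM per kb), 2-month KO (0.147) and 2-month WT (0.386), and in 2-month WT it overlapped with Dll4. In 12-month WT the lowest gene was Dll4 (0.748 CPM per kb), which overlapped with Jag2 (0.818). Hey1 moved up the order in 12-month WT, where it stood at 9.86 CPM per kb beside Notch1 at 9.04, with overlapping libraries. In the other 3 groups Hey1 had 1.63 CPM per kb or less, well below Notch1.

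The 250 bases before the start of 3 of the genes are printed here because the age difference of each of these genes was not the same in KO as in WT, in opposite senses for the 2 receptors. They are from RefSeq on GRCm38.p6, 5′ to 3′ on the gene's own strand, and 8 of the 10 genes had an entry, all but Hes1 and Hey1. Capitals mark matches on either strand to the GC box GGGCGG, bound by SP1-type factors, and to the N-box CACNAG, a site that Hes repressors can bind. The regions are chr2:26503823-26504072 on the minus strand for Notch1, chr3:98013288-98013537 on the plus strand for Notch2 and chr2:119325534-119325783 on the plus strand for Dll4.
Notch1: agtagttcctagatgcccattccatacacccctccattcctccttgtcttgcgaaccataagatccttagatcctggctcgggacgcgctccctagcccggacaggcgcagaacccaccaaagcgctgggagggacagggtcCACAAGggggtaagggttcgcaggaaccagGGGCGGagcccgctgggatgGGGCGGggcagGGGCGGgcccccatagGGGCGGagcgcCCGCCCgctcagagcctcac
Notch2: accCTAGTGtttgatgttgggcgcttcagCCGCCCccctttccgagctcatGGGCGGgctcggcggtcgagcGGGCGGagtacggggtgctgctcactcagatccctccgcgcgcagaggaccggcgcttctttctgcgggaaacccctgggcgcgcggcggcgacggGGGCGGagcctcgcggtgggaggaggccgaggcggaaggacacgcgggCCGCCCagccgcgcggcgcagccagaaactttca
Dll4: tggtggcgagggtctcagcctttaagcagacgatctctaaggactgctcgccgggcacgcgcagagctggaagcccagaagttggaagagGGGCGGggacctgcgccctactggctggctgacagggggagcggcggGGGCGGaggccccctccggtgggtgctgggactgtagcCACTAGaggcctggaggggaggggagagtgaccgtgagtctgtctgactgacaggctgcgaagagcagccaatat
The GC content was 66% for Notch1, 72% for Notch2 and 65.6% for Dll4. Dll1, whose age difference also differed between the genotypes, had an entry too. Its window at the deposited start held 0 GC boxes and 0 N-boxes. Dll1 had 2 windows, and neither is printed. The Notch1 and Notch2 windows each held 5 GC boxes and 1 N-box, and the Dll4 window held 2 GC boxes and 1 N-box. Of 32851 windows of the same length, 32.7% held a GC box and 36.7% an N-box. The RBPJ core TGGGAA, found in 21.6% of all windows on either strand, and the E-box CACGTG, in 6.02%, had no match in any of the 8 windows. A match is a run of letters and no measure of binding.

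**Figure D1:**
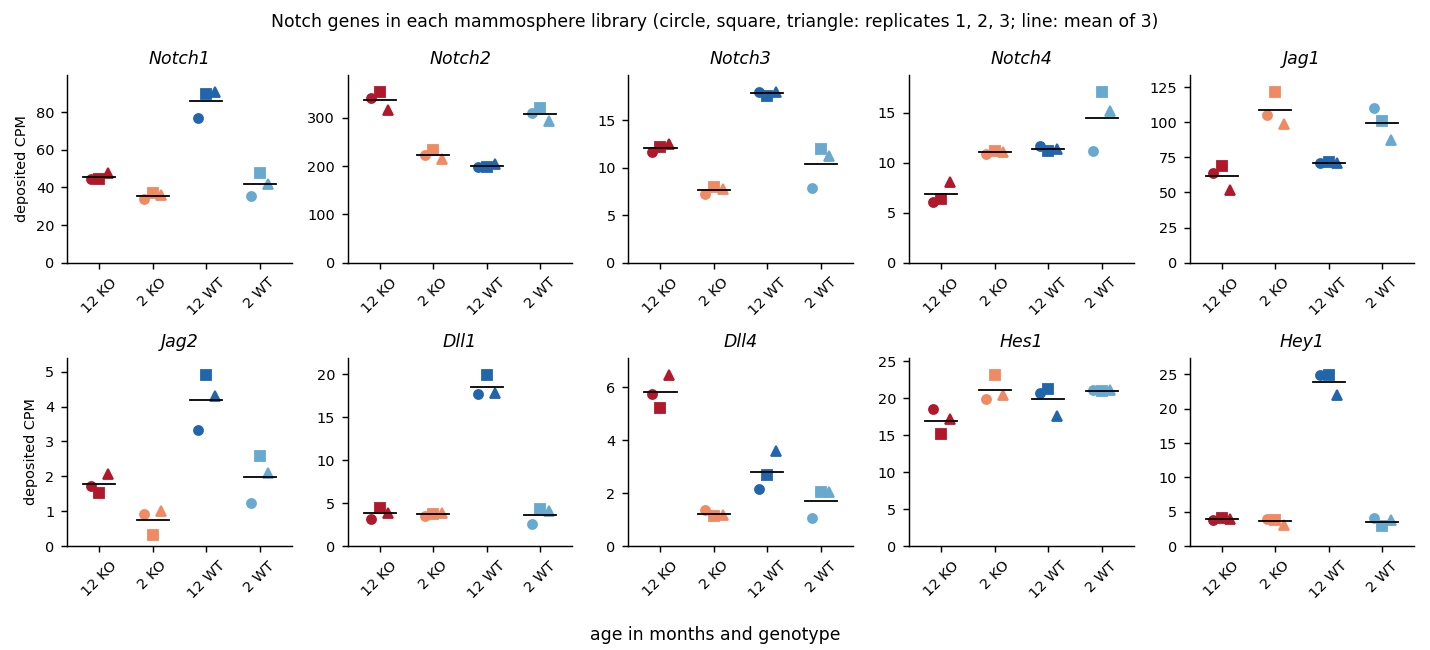
Deposited CPM (vertical axis, from 0, own scale per gene) of the 10 Notch genes in each of the 12 libraries, by age in months and genotype. Points are libraries (circle, square and triangle for replicates 1, 2 and 3) and lines are means of 3. Hey1 and Dll1 stand apart in 12-month WT, Dll4 in 12-month KO, and Notch2 is high in 12-month KO and 2-month WT.

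With age in KO, 8 of the 10 genes were called, 5 higher and 3 lower at 12 months, where 67% of all 13961 genes tested were called (32.9% higher, 34.2% lower). With age in WT, 8 were also called, 6 higher and 2 lower, where 58% of all genes were called (22.3% higher, 35.6% lower). The called genes were 9 of 10 between KO and WT at 12 months (2 higher, 7 lower in KO). Of all genes 70.2% were called there, 31.3% higher and 38.9% lower. At 2 months 3 of 10 were called, all lower in KO, where 16.1% of all genes were called, 1.86% higher and 14.2% lower. For the age by genotype interaction, which is the age difference in KO minus that in WT, 5 genes were called (2 positive, 3 negative), where 57.7% of all genes were (31.4% positive, 26.2% negative). With 10 genes against such backgrounds, none of these shares is read as particular to the Notch genes, and the account below rests on sizes and directions. The median size of the log2 difference, sign aside, was 0.61 for the 10 genes against 0.36 for all genes with age in KO, and 0.70 against 0.28 with age in WT. It was 0.83 against 0.40 between KO and WT at 12 months, 0.27 against 0.12 at 2 months and 0.52 against 0.40 in the interaction. The 10 genes were chosen with earlier results of these data known, so these sizes are not read as particular to them either. The 3 libraries of each side did not overlap for 8 genes with age in KO (72.9% of all genes), 8 with age in WT (62.3%), 9 at 12 months (73.9%) and 3 at 2 months (32.1%).

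**Figure D2:**
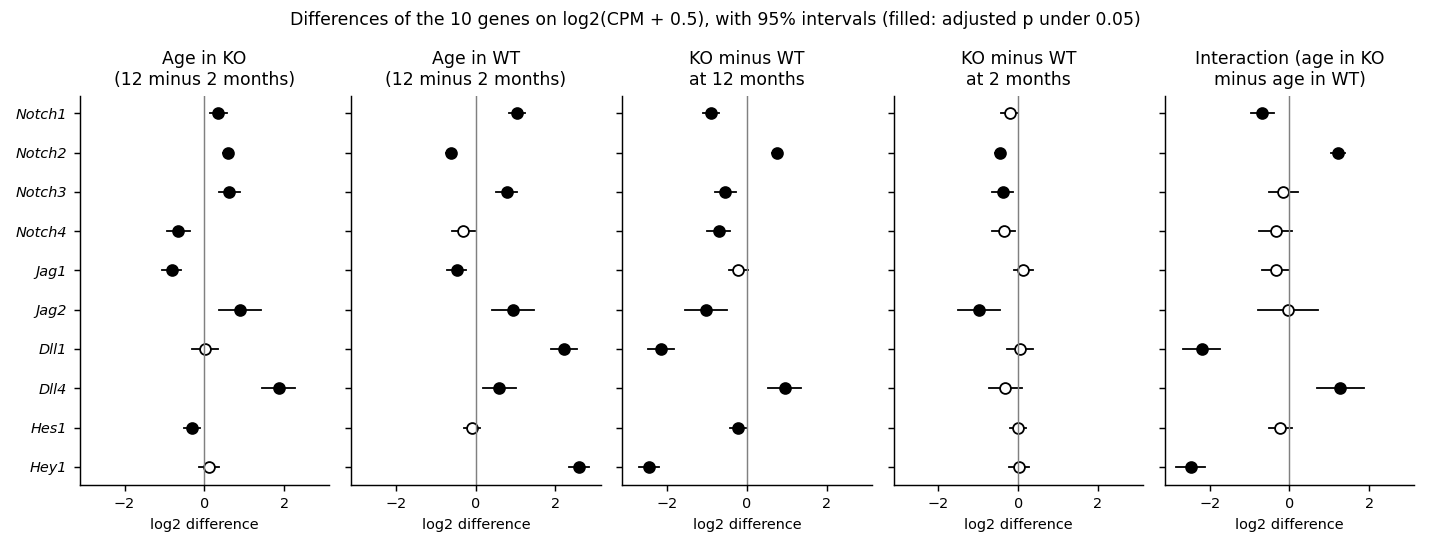
Log2 differences of the 10 genes on the log2(CPM + 0.5) scale (horizontal axis) in the 5 comparisons, with 95% intervals from limma. Filled points passed an adjusted p of 0.05. Dll1 and Hey1 lie near 0 with age in KO and above 2 with age in WT, and Notch2 lies on opposite sides of 0 in these comparisons.

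Among the receptors, Notch1 and Notch2 differed in how age moved them in the 2 genotypes. Notch1 (chromosome 2, 26457902 to 26503822, minus strand, mm10) codes for a receptor used by luminal progenitors. It measured 44.3, 44.7 and 47.8 CPM in 12-month KO, against 33.8, 37.1 and 36.0 CPM in 2-month KO. In WT it measured 76.8, 89.6 and 90.8 CPM at 12 months, against 35.6, 47.7 and 41.9 CPM at 2 months. All 3 libraries of 12-month WT were above every other library. Notch1 rose with age in KO by 0.35 ± 0.10 on the log2 scale (SE, adjusted p 0.00532) and in WT by 1.04 ± 0.10 (adjusted p 6.10e-07). The interaction was -0.68 ± 0.13 (adjusted p 0.000736), a smaller age difference in KO. At 12 months Notch1 was lower in KO than in WT (-0.90, adjusted p 1.97e-06), and at 2 months the difference of -0.22 did not pass (adjusted p 0.154).

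Notch2 (chromosome 3, 98013538 to 98150367, plus strand) is the receptor with the most reads here. It measured 342, 354 and 315 CPM in 12-month KO, against 223, 234 and 214 CPM in 2-month KO. In WT the order of the ages was the other way round, with 198, 197 and 204 CPM at 12 months, against 311, 320.1 and 294 CPM at 2 months. Within neither genotype did the ages overlap. Notch2 rose with age in KO by 0.59 ± 0.06 (adjusted p 7.39e-07) and fell with age in WT by 0.62 ± 0.06 on the log2 scale (adjusted p 4.50e-07), and the interaction was 1.21 ± 0.08 (adjusted p 3.20e-08). The difference of KO from WT changed sign with age, with 0.75 at 12 months (adjusted p 5.32e-08) while the 2-month value was -0.46 (adjusted p 0.000106). The 2-month difference remained past the threshold in every alternative setting, with adjusted p from 6.93e-05 to 0.00123.

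The sums of the skeletal muscle, mural cell and adipocyte lists moved with Notch2, as did Pdgfra and Dcn of the fibroblast list. The 10 skeletal muscle markers summed to 846 to 1588 CPM in 12-month KO, against 285 to 333 CPM in 2-month KO, and to 196 to 219.7 CPM in 12-month WT, against 999 to 1184 CPM in 2-month WT. Of the 9 tested, 7 rose and 1 fell with age in KO, and 9 fell in WT. The 9 mural cell markers of vessel walls summed to 850 to 914 CPM in 12-month KO, against 676 to 818 CPM in 2-month KO. In WT they summed to 579 to 631 CPM at 12 months, against 710 to 833 CPM at 2 months. Of the 8 tested, 7 rose and 1 fell with age in KO, and 1 rose and 3 fell in WT. The 7 adipocyte markers summed to 1122 to 1146 CPM in 12-month KO, against 847 to 957 CPM in 2-month KO. In WT they summed to 607 to 634 CPM at 12 months, against 809 to 890 CPM at 2 months. Of the 4 tested, 2 rose and 1 fell with age in KO, and 4 fell in WT. Of all genes tested, 32.9% rose and 34.2% fell with age in KO, and 22.3% rose and 35.6% fell in WT. The fibroblast list was mixed, with 4 of 10 higher and 6 lower in KO and 8 lower in WT. Its sum was lower with age in both genotypes, unlike Notch2. It was 8469 to 9598 CPM in 12-month KO, against 9998 to 11063 CPM in 2-month KO. In WT the list summed to 6791 to 7221 CPM at 12 months, against 10708 to 11568 CPM at 2 months. Of its genes, Pdgfra, a receptor of stromal cells, averaged 951 ± 58.9 CPM in 12-month KO and 525 ± 17.4 CPM in 2-month KO, and 389.8 ± 6.90 CPM in 12-month WT and 604 ± 17.6 CPM in 2-month WT (SD, n = 3 each). Dcn, which codes for the matrix proteoglycan decorin, averaged 4137 ± 296 CPM in 12-month KO and 2525 ± 33.3 CPM in 2-month KO, and 1679 ± 158 CPM in 12-month WT and 3341 ± 102 CPM in 2-month WT (SD, n = 3 each). Pdgfra, Dcn and the muscle, mural cell and adipocyte sums thus had the age directions of Notch2 in both genotypes. The part of such cells in the Notch2 differences was not tested.

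Notch3, a receptor best known from the smooth muscle cells and pericytes of vessels, moved the same way in both genotypes. It had 11.6 to 12.5 CPM in 12-month KO, against 7.27 to 7.99 CPM in 2-month KO, and 17.6 to 18.01 CPM in 12-month WT, against 7.85 to 12.0 CPM in 2-month WT. It rose with age in KO (0.62 ± 0.12, adjusted p 0.000465) and in WT (0.78 ± 0.12, adjusted p 8.59e-05). The interaction of -0.16 did not pass (adjusted p 0.451), with a 95% interval from -0.52 to 0.21. The 12-month KO libraries lay below those of 12-month WT (-0.55, adjusted p 0.00119). At 2 months the libraries overlapped, and the difference of -0.39 (adjusted p 0.0423) lost its call in 9 of 14 alternatives. Among these were library scaling recomputed over all 12 libraries (adjusted p 0.136) and leaving out replicate 2 or 3 of 2-month WT or any 1 library of 2-month KO (0.0712 to 0.167). The mural cell sum, given with Notch2, rose with age in KO but fell in WT, where Notch3 rose. The part of such cells in the Notch3 differences was not tested.

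Notch4, a receptor of endothelial cells, had its lowest level in 12-month KO. It had 6.09 to 8.12 CPM in 12-month KO, against 10.9 to 11.2 CPM in 2-month KO, and 11.2 to 11.7 CPM in 12-month WT, against 11.2 to 17.1 CPM in 2-month WT. It fell with age in KO by 0.66 ± 0.13 on the log2 scale (adjusted p 0.000693). In WT the ages overlapped, and the difference of -0.31 did not pass (adjusted p 0.0613), and it ran from -0.48 (adjusted p 0.00177) without replicate 1 of 2-month WT to -0.18 (adjusted p 0.250) without replicate 2. The 12-month KO libraries also lay below those of 12-month WT (-0.70, adjusted p 0.000368). The difference at 2 months was -0.36 (adjusted p 0.0906).

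Endothelial markers went against the direction of Notch4 in KO. The 14 endothelial markers summed to 439 to 494 CPM in 12-month KO, against 121 to 124 CPM in 2-month KO. In WT they summed to 201 to 208 CPM at 12 months, against 175 to 199.98 CPM at 2 months. Of the 13 tested, 13 rose with age in KO, where 32.9% of all genes tested rose. In WT 4 rose and 1 fell, where 22.3% of all genes rose and 35.6% fell. The part of the endothelial markers in the differences of the Notch genes was not tested. In bulk RNA, fewer cells of a type and less RNA per cell cannot be told apart.

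Among the ligands, Dll1 differed most between the genotypes with age. Dll1 (chromosome 17, 15367354 to 15375823, minus strand) codes for a Delta-type ligand known in the mammary gland from basal cells. It measured 3.16, 4.42 and 3.86 CPM in 12-month KO, against 3.57, 3.76 and 3.91 CPM in 2-month KO. In WT it measured 17.8, 19.9 and 17.9 CPM at 12 months, against 2.62, 4.33 and 4.08 CPM at 2 months. Every library outside 12-month WT was at or below 4.42 CPM. Dll1 rose with age in WT by 2.21 ± 0.15 (adjusted p 3.21e-08), and in KO the difference was 0.01 ± 0.15 (adjusted p 0.945, 95% interval from -0.31 to 0.34). The interaction was -2.20 ± 0.21 (adjusted p 1.43e-06), and at 12 months Dll1 was lower in KO than in WT (-2.15, adjusted p 3.31e-08).

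Dll4 showed the other pattern. Dll4 (chromosome 2, 119325784 to 119335666, plus strand), the Delta-type ligand of endothelial cells, measured 5.74, 5.197 and 6.45 CPM in 12-month KO, against 1.35, 1.14 and 1.18 CPM in 2-month KO. In WT it measured 2.16, 2.67 and 3.58 CPM at 12 months, against 1.06, 2.05 and 2.04 CPM at 2 months. The 12-month KO libraries were above all others. Dll4 rose with age in KO by 1.86 ± 0.19 (adjusted p 1.72e-06), and the interaction was 1.27 ± 0.27 (adjusted p 0.00130). Dll4 was higher in KO than in WT at 12 months (0.95, adjusted p 0.000620), and at 2 months the difference of -0.33 did not pass (adjusted p 0.294).

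The smaller Dll4 rise in WT (0.59 ± 0.19, adjusted p 0.0176) rested on single libraries. It was 0.35 (adjusted p 0.0708) without replicate 1 of 2-month WT and 0.43 (adjusted p 0.0896) without replicate 3 of 12-month WT. The endothelial marker sum given with Notch4 had the same order of groups as Dll4, with 12-month KO highest and 2-month KO lowest. Pecam1, an endothelial adhesion protein, averaged 98.1 ± 3.10 CPM in 12-month KO and 18.7 ± 1.41 CPM in 2-month KO (SD, n = 3 each).

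Jag1, the Serrate-type ligand with the most reads, was lower at 12 months in both genotypes. It measured 64.1, 68.6 and 51.5 CPM in 12-month KO, against 105, 122 and 99.1 CPM in 2-month KO, and 70.9, 71.4 and 70.6 CPM in 12-month WT, against 110.4, 100.6 and 87.1 CPM in 2-month WT. The ages did not overlap in either genotype. Jag1 fell with age in KO by 0.82 ± 0.11 on the log2 scale (adjusted p 1.78e-05) and in WT by 0.48 ± 0.11 (adjusted p 0.00198). The difference between KO and WT was -0.22 at 12 months (adjusted p 0.0875), and it ran from -0.30 (adjusted p 0.0331) without replicate 2 of 12-month KO to -0.10 (adjusted p 0.385) without replicate 3. The 2-month difference was 0.13 (adjusted p 0.489). The interaction was -0.35, with an adjusted p of 0.0684 as deposited and 0.0348 with scaling recomputed over all 12 libraries. It also passed without replicate 1 of 2-month WT (0.0251) or replicate 2 of 12-month KO (0.0306), and was -0.23 (0.156) without replicate 3 of 12-month KO.

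Jag2, the other Serrate-type ligand, was the thinnest of the 10 genes, with 15 to 214 reads per library. It had 1.51 to 2.07 CPM in 12-month KO, against 0.324 to 1.003 CPM in 2-month KO, and 3.34 to 4.91 CPM in 12-month WT, against 1.23 to 2.59 CPM in 2-month WT. It rose with age by similar sizes in KO (0.91 ± 0.24, adjusted p 0.00507) and in WT (0.95 ± 0.24, adjusted p 0.00451). The interaction was -0.04, with a wide 95% interval from -0.79 to 0.70 (adjusted p 0.924). At both ages Jag2 was lower in KO than in WT, with a log2 difference of -1.03 at 12 months (adjusted p 0.00194), while that of 2 months was -0.99 (adjusted p 0.0138). The 2-month call was lost without replicate 2 (adjusted p 0.0619) or 3 (0.0519) of 2-month WT and without replicate 2 of 2-month KO (0.0533).

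Put together per kilobase, the receptors and the ligands each changed their make-up. Notch2 supplied a mean of 81.3% of the summed receptor level in 12-month KO, 76.9% in 2-month KO, 59.4% in 12-month WT and 78.9% in 2-month WT. Notch1 supplied 12.2%, 13.6%, 28.2% and 11.8% in these groups, so its share was largest in 12-month WT. Jag1 supplied 78.5% of the ligand level in 12-month KO, against 92.6% in 2-month KO, and 65.3% in 12-month WT, against 90.3% in 2-month WT. The ligand whose share grew most was not the same: Dll4 supplied 11.3% in 12-month KO and 3.85% in 12-month WT, while Dll1 supplied 7.69% in 12-month KO and 26.7% in 12-month WT. These are shares and not levels. With age in KO, Jag1 went from 19.3 to 10.9 CPM per kb, Dll4 from 0.327 to 1.55 and Dll1 from 1.05 to 1.06. The summed ligand level was 13.9 CPM per kb in 12-month KO, against 20.9 in 2-month KO, and 19.4 in 12-month WT, against 19.6 in 2-month WT. The summed receptor level was 39.5 CPM per kb in 12-month KO, against 27.7 in 2-month KO, and 32.0 in 12-month WT, against 37.3 in 2-month WT.

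**Figure D3:**
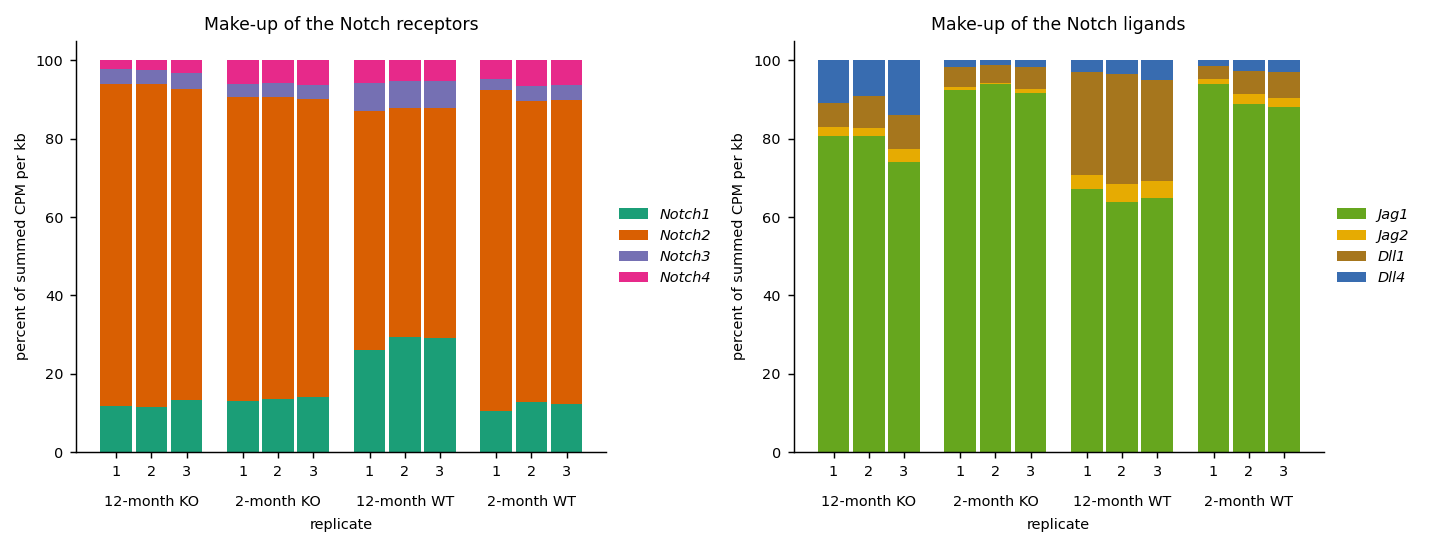
Share of each gene in the summed CPM per kb (vertical axis, percent) of the 4 receptors (left) and the 4 ligands (right), 1 bar per library. Notch1 makes up 26.1% to 29.4% of the receptor bars of 12-month WT, and Dll1 25.8% to 27.9% of their ligand bars; Dll4 makes up 9.17% to 13.9% of the ligand bars of 12-month KO.

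Of the target genes, Hey1 varied over the widest range and Hes1 over the narrowest. Hey1 (chromosome 3, 8663359 to 8667038, minus strand), a repressor that Notch activates, measured 3.80, 4.11 and 3.95 CPM in 12-month KO, against 3.92, 3.84 and 3.09 CPM in 2-month KO. In WT it measured 24.8, 24.9 and 21.9 CPM at 12 months, against 4.02, 2.89 and 3.81 CPM at 2 months. The 3 libraries of 12-month WT stood alone, and the other 9 lay between 2.89 and 4.11 CPM. Hey1 rose with age in WT by 2.59 ± 0.12 (adjusted p 6.21e-10), and in KO the difference was 0.12 ± 0.12 (adjusted p 0.395, 95% interval from -0.14 to 0.38). The interaction was -2.47 ± 0.17 (adjusted p 4.97e-08), and at 12 months Hey1 was lower in KO than in WT (-2.45, adjusted p 8.73e-10). At 2 months the genotypes overlapped (0.02, adjusted p 0.942).

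Hes1 (chromosome 16, 30065357 to 30067796, plus strand), a repressor and a classical Notch target, had 15.1 to 18.6 CPM in 12-month KO, against 19.9 to 23.1 CPM in 2-month KO. In WT it had 17.6 to 21.3 CPM at 12 months, against 20.9 to 21.1 CPM at 2 months. It fell with age in KO by 0.31 ± 0.09 on the log2 scale (adjusted p 0.00913), and in WT the ages overlapped (-0.08, adjusted p 0.459). The interaction of -0.23 did not pass (adjusted p 0.153). At 12 months KO and WT overlapped, and the difference of -0.22 (adjusted p 0.0456) lost its call in 8 of 14 alternatives, among them leaving out replicate 2 or 3 of 12-month KO or replicate 1 or 2 of 12-month WT (adjusted p 0.0635 to 0.199). Side by side in WT, Hey1 averaged 23.9 ± 1.70 CPM at 12 months and 3.57 ± 0.60 CPM at 2 months, and Hes1 averaged 19.9 ± 1.97 CPM at 12 months and 21.0 ± 0.101 CPM at 2 months (SD, n = 3 each).

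Epithelial markers moved with the genes that were high in 12-month WT. The 15 luminal markers summed to 572 to 611 CPM in 12-month KO, 497 to 575 CPM in 2-month KO, 4201 to 4326 CPM in 12-month WT and 378 to 449 CPM in 2-month WT. With age, 14 of the 15 rose in WT, while in KO 7 rose and 2 fell. The 12 basal markers summed to 205 to 245 CPM in 12-month KO, 254 to 259.6 CPM in 2-month KO, 577 to 618 CPM in 12-month WT and 234 to 251 CPM in 2-month WT. With age, 11 of the 12 rose in WT. In KO 6 rose and 2 fell (median log2 difference 0.54), although their sum was lower. Of all genes tested, 22.3% rose with age in WT, and 32.9% rose and 34.2% fell in KO. The 8 genes of the Schwann cell list were also highest in 12-month WT (159.95 to 169 CPM, against 20.6 to 29.7 CPM in the other groups), through Sox10, Erbb3 and Mbp. Krt8, a luminal keratin, averaged 60.3 ± 7.13 CPM in 12-month KO, 77.1 ± 9.74 in 2-month KO, 505 ± 13.2 in 12-month WT and 48.8 ± 10.2 in 2-month WT (SD, n = 3 each). These sums follow the order of groups seen for Hey1, Dll1 and Notch1 in that 12-month WT was highest, and their part in those differences was not tested.

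**Figure D4:**
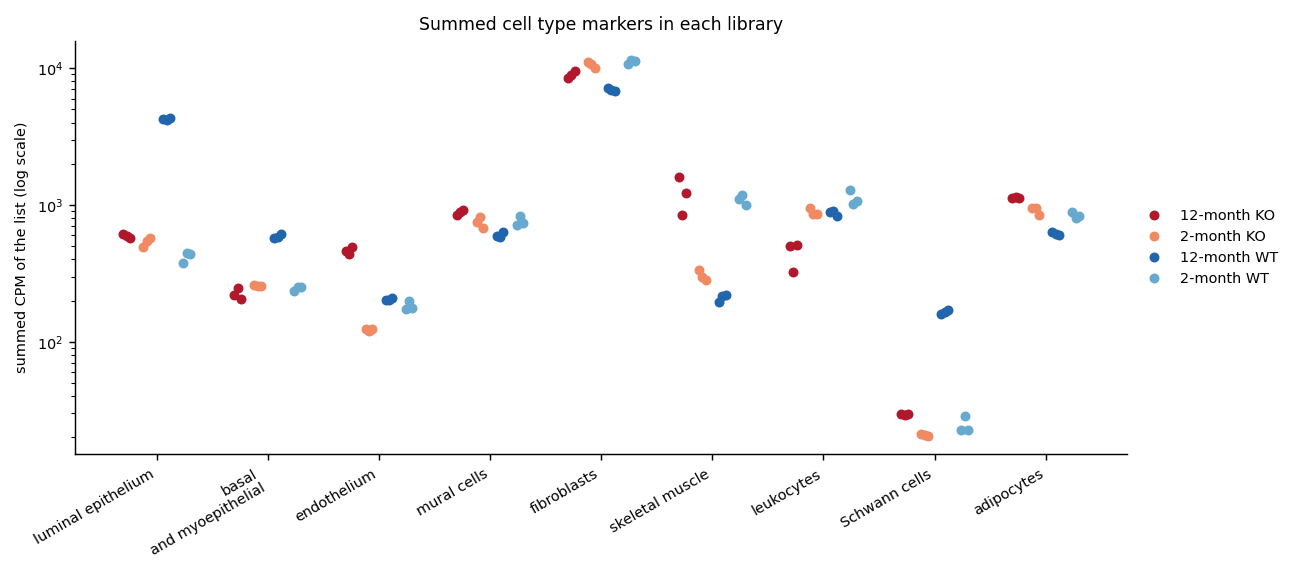
Summed CPM of each cell type marker list (vertical axis, log scale) in each of the 12 libraries, coloured by group. The luminal list is at 4201 CPM or above in 12-month WT and at 611 CPM or below elsewhere, and the endothelial list is highest in 12-month KO.

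Genes whose profile over the 12 libraries lay nearest to each Notch gene were found by the root mean square (RMS) difference of log2 values, each gene centred on its own mean. Nearest to Hey1 were Irx2, Dynap and Fzd6 (RMS 0.16, 0.18 and 0.18, where Hey1 itself varied by 1.11 about its mean). Nearest to Dll1 were Hip1r, Arrdc1 and Evpl (0.16, 0.17 and 0.17, with Dll1 varying by 0.96). Nearest to Dll4 were Ecscr, Iqsec1 and Nfkbie (0.17, 0.17 and 0.21, with Dll4 varying by 0.74). Ecscr is known as an endothelial cell surface gene, Evpl codes for envoplakin of epithelial cell junctions, and Fzd6 for a Wnt receptor. For Notch1 the nearest genes were Capn5, Acad10 and H2-Ke6 (0.09, 0.09 and 0.10, with Notch1 varying by 0.49), and for Notch2 they were Zhx3, Rgl1 and Frmd4a (0.07, 0.08 and 0.08, with Notch2 varying by 0.32). Jag1 lay nearest to Cdh2, the N-cadherin gene, Apaf1 and Rnf150 (0.10, 0.10 and 0.11, with Jag1 varying by 0.36). Notch3 lay nearest to Wdtc1, Kank1 and the growth factor receptor gene Erbb2 (0.09, 0.10 and 0.11, with Notch3 varying by 0.44). Notch4 had Dgcr14, Gorasp1 and Ehmt2 (0.09, 0.09 and 0.10, varying by 0.40). Jag2 had Vwa1, Pisd-ps1 and Kcnma1 (0.27, 0.29 and 0.30, varying by 0.75). Hes1 had Eif3m, Zfp458 and Lyrm2 (0.06, 0.08 and 0.08, varying by 0.16).

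Outside the 10 genes, the machinery of the pathway was read from lists of genes by role. The counts in each list stand beside the shares of all genes tested, 32.9% higher and 34.2% lower with age in KO and 22.3% higher and 35.6% lower in WT, and none is read as particular to its list. The nuclear complex, in which RBPJ, Mastermind proteins and acetyltransferases switch targets on, had 7 of 9 genes higher and 0 lower with age in KO (median log2 difference 0.52, against -0.02 for all genes tested). With age in WT it had 3 higher and 1 lower (median 0.05, against -0.08). In the interaction 6 were positive and 0 negative, where 31.4% of all genes tested were positive and 26.2% negative. Rbpj, the DNA-binding partner of all 4 receptors, averaged 95.97 ± 2.36 CPM in 12-month KO and 65.99 ± 0.878 CPM in 2-month KO, and 50.6 ± 4.54 CPM in 12-month WT and 74.4 ± 7.83 CPM in 2-month WT (SD, n = 3 each). Like Notch2, it rose with age in KO (0.54, adjusted p 4.03e-05) and fell in WT (-0.55, adjusted p 3.74e-05), with an interaction of 1.09 (adjusted p 1.92e-06). The skeletal muscle, mural cell and adipocyte sums, Pdgfra and Dcn, given with Notch2, had the same age directions as Rbpj. The fibroblast list as a whole did not, with 4 of 10 genes higher, 6 lower and a lower sum with age in KO. The part of such cells in the Rbpj differences was not tested. Maml2, a Mastermind coactivator, had an interaction of 1.23 (adjusted p 3.47e-07), and the acetyltransferase genes Crebbp and Ep300 had interactions of 1.18 (adjusted p 1.89e-06) and 0.90 (adjusted p 1.08e-06).

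Receptor cleavage, the step that frees the inner part of Notch, had 6 of 10 genes higher and 0 lower with age in KO, and 1 higher and 1 lower with age in WT. Ncstn, which codes for nicastrin of the gamma-secretase complex, averaged 148 ± 4.28 CPM in 12-month KO and 72.8 ± 1.71 CPM in 2-month KO, and 88.2 ± 5.05 CPM in 12-month WT and 91.8 ± 1.33 CPM in 2-month WT (SD, n = 3 each), with an interaction of 1.08 (adjusted p 4.17e-08). Adam17, one of the proteases that cut Notch outside the membrane, rose with age in KO (0.29, adjusted p 0.000191) and fell in WT (-0.38, adjusted p 1.86e-05). Aph1b, which codes for another gamma-secretase subunit, rose in both (0.62 in KO, adjusted p 3.94e-06, and 0.56 in WT, adjusted p 1.32e-05).

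Enzymes that put sugars on the receptors had 5 of 8 genes higher and 1 lower with age in KO, and 2 higher and 3 lower in WT. Lfng, a Fringe enzyme that shifts Notch towards Delta ligands, was highest in 12-month WT, as Dll1 and Hey1 were. It averaged 3.87 ± 1.09 CPM in 12-month KO and 2.81 ± 0.166 CPM in 2-month KO, and 10.7 ± 0.802 CPM in 12-month WT and 3.18 ± 0.743 CPM in 2-month WT (SD, n = 3 each). It rose with age in WT (1.62, adjusted p 1.81e-06), the difference in KO was 0.37 (adjusted p 0.0643), and the interaction was -1.25 (adjusted p 0.000510). Gxylt1, a xylosyltransferase, rose with age in KO (0.45, adjusted p 5.38e-05) and fell in WT (-0.37, adjusted p 0.000341). Pofut1, which adds the fucose that Fringe extends, had a lower level at 12 months in WT (-0.45, adjusted p 2.02e-05). Its difference in KO was -0.09 (adjusted p 0.180).

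In receptor trafficking and turnover, 6 of 12 genes were higher and 0 lower with age in KO, and 5 higher and 1 lower in WT. Numb, an endocytic adaptor that holds Notch down, averaged 33.4 ± 0.579 CPM in 12-month KO and 29.2 ± 0.694 CPM in 2-month KO, and 47.7 ± 0.418 CPM in 12-month WT and 31.6 ± 1.81 CPM in 2-month WT (SD, n = 3 each). It rose with age in both genotypes, by 0.19 in KO (adjusted p 0.00803) and 0.59 in WT (adjusted p 7.03e-07), with an interaction of -0.40 (adjusted p 0.000669). Aak1, a kinase that binds Notch and acts on Numb, had an interaction of 1.12 (adjusted p 4.20e-07). The ubiquitin ligase genes Cbl and Dtx3l had interactions of 1.08 (adjusted p 1.78e-05) and 0.79 (adjusted p 3.73e-06).

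Corepressors that hold Notch targets off had 5 of 11 genes higher and 1 lower with age in KO, and 4 higher and 3 lower in WT. Spen, which binds RBPJ, rose with age in KO (0.99, adjusted p 5.47e-07), and its difference in WT was 0.19 (adjusted p 0.0956). Hdac2, a histone deacetylase gene, fell in KO (-0.56, adjusted p 2.29e-06) and in WT (-0.42, adjusted p 3.97e-05). Of the ligases that ubiquitinate ligands, 2 of 6 were higher and 2 lower with age in KO, and 1 higher and 2 lower in WT. Neurl1a, one of them, rose in KO (0.50, adjusted p 0.0128) and fell in WT (-0.82, adjusted p 0.000598). Of 5 ligand-like proteins tested, 1 was higher and 2 lower with age in KO, and 0 higher and 4 lower in WT. Dlk1, a ligand-like protein without the usual Notch-binding domain, averaged 0.0723 ± 0.0639 CPM in 12-month KO (1 to 15 reads per library) and 3.00 ± 0.329 CPM in 2-month KO, and 0.785 ± 0.129 CPM in 12-month WT and 3.996 ± 1.08 CPM in 2-month WT (SD, n = 3 each). It fell with age in KO (-2.61, adjusted p 1.91e-08) and in WT (-1.78, adjusted p 8.32e-07).

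The wider list of Hes, Hey and Nrarp targets was mixed. With Hes1 and Hey1 included, 3 of 6 genes were higher and 2 lower with age in KO, and 3 higher and 1 lower in WT. Nrarp, a target that feeds back on the receptor, rose by similar sizes in KO (1.03, adjusted p 2.92e-05) and WT (1.08, adjusted p 2.31e-05), and its interaction was -0.05 (adjusted p 0.859, 95% interval from -0.48 to 0.39). Heyl, a Hey family repressor, fell with age in KO (-0.86, adjusted p 4.23e-05) and in WT (-0.40, adjusted p 0.0144). Hey2, another, averaged 1.08 ± 0.0817 CPM in 12-month KO and 0.650 ± 0.198 CPM in 2-month KO, and 0.412 ± 0.0617 CPM in 12-month WT and 0.555 ± 0.108 CPM in 2-month WT (SD, n = 3 each). It rose with age in KO (0.47, adjusted p 0.00864), and in WT the difference was -0.21 (adjusted p 0.219). Hes5, a target in neural cells, had 0 to 2 reads per library, and Dll3, the remaining Delta-type gene, had 0 to 3.

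**Figure D5:**
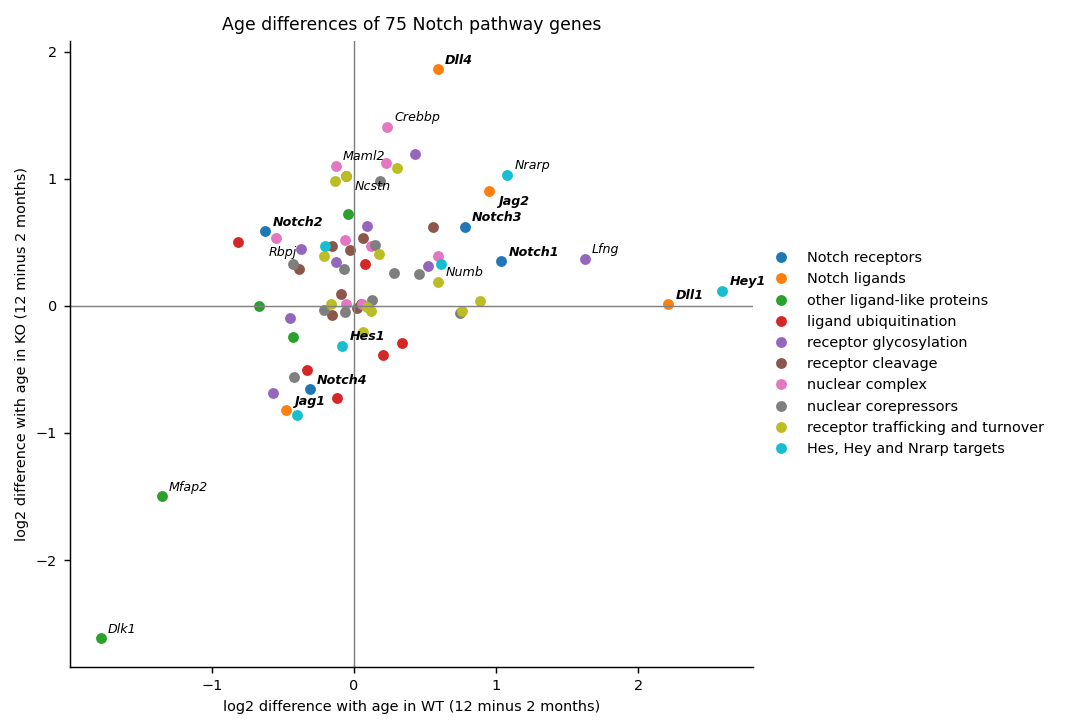
Log2 difference with age in KO (vertical axis) against that in WT (horizontal axis) for the Notch pathway genes tested, coloured by role, with the 10 Notch genes in bold. Hey1, Dll1 and Lfng lie far to the right, Dll4 and Crebbp high up, and Notch2 and Rbpj at the upper left.

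Several of these genes share exon bases with other annotated genes, and whether the counting used strand is not given in the sources used here. Dll1 shares 867 bases with A930024N18Rik on the opposite strand, Notch1 shares 1068 with 0610009E02Rik and 414 with Gm13568, Notch3 shares 488 with Gm17276 and Dll4 shares 214 with Gm14207, all on opposite strands. Notch2 shares 541 bases with Gm42820 on its own strand. Of these partners, Gm14207 is itself a gene of the deposited table and the others are not. Reads of the others could enter the values of the Notch genes they overlap. Reads shared by Dll4 and Gm14207 could be counted for either gene or for neither. How many reads were affected was not tested.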

How the data were processed

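The submitters' processing notes name the build mm10 and the tools TopHat2 2.1.0, Bowtie2 2.2.4, SAMtools 0.1.18 and HTSeq 0.6.1p1. The deposited signal values are CPM scaled by the authors with TMM in edgeR, per the file headers. Dividing by the CPM of 1 read gave whole reads for 100% of values (tolerance 0.1). Floors cover counting error only.

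Genes averaging 0.5 CPM or more over the libraries (13961) were tested on the log2(CPM + 0.5) scale, which understates changes of low genes. All 10 Notch genes passed this filter. A model of 4 group means over the 12 libraries was fitted with limma 3.58.1 under R 4.3.3, trend on, leaving 8 residual degrees of freedom. Benjamini-Hochberg adjustment ran over all genes within each of 5 comparisons, and genes were called at an adjusted p under 0.05. Alternatives used pseudocounts of 0.1 and 1, no filter or one at 2 CPM, TMM or DESeq2 1.42.0 size factors over 12 libraries, edgeR 4.0.16 quasi-likelihood tests on the recovered reads, a replicate block, and each library left out. The code was tested on simulated data.

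The 10 genes and all lists were chosen with earlier results of these data known. Named pathway genes are among up to 4 per list with the smallest p in an age comparison or the interaction, plus Numb and Shc1; Hes5, Dll3, Pecam1, Krt8, Sox10, Erbb3, Mbp, Cnn1, Pdgfra and Dcn were named after their values were seen. Nearest profiles leave out predicted genes and genes under a mean of 2 CPM. Lengths and overlaps are from GENCODE on GRCm38, which is mm10, and coordinates are deposited ones, written from base 1.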

Additional observations from a re-analysis of the deposited data

Results flagged for a closer look

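For 5 of the 10 Notch genes the age difference in KO was not the age difference in WT, by the interaction test in limma. The log2 interaction, age difference in KO minus that in WT, was -2.47 for Hey1 (adjusted p 4.97e-08) and -2.20 for Dll1 (adjusted p 1.43e-06), both higher in all 3 libraries of 12-month WT than in any other library. It was -0.68 for Notch1 (adjusted p 0.000736), which rose in both genotypes and less in KO. It was 1.21 for Notch2 (adjusted p 3.20e-08), which rose in KO and fell in WT. It was 1.27 for Dll4 (adjusted p 0.00130), which rose more in KO. Such an interaction was called for 57.7% of all genes tested.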

How the results depend on the processing

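Of 760 recomputed values for the 10 genes in 5 comparisons, 722 kept their side of the threshold, and 0 called values changed sign. Differences that were not called could change sign, as for Dll1 with age in KO (0.01, and -0.09 without replicate 2 of 12-month KO). The genotype comparison at 2 months moved most: 2245 genes were called (259 higher, 1986 lower in KO), against 1458 (426 and 1032) with TMM and 1417 (428 and 989) with DESeq2 size factors over all 12 libraries and 1414 (474 and 940) with edgeR on recovered reads, and 1407 to 3033 with 1 library left out. The Notch genes called there numbered 3, and 1 to 6 with 1 library left out. They were 6 without replicate 1 of 2-month WT, which was the lowest of its group in 6 of the 10 genes (Notch1 then passed at 0.0140, Notch4 at 0.00418 and Dll4 at 0.0227), and 1 without replicate 2 or 3 of 2-month WT or replicate 2 of 2-month KO. The cause of these shifts was not tested. With age in WT, the split of 3120 higher and 4971 lower genes became 3898 and 3766 with edgeR. Same-numbered libraries did not deviate together throughout (correlations from -0.163 to 0.335), so the numbers were not taken as pairs; a replicate block brought 4 results past the threshold, namely Notch4 with age in WT (adjusted p 0.0425), Notch1 at 2 months (0.0498), and Jag1 at 12 months (0.0241) and in the interaction (0.0166), and ended no call of a Notch gene. The interaction of Notch4 (adjusted p 0.131) passed without replicate 2 of 2-month WT (0.0340) or replicate 3 of 12-month KO (0.0409) and was weakest without replicate 1 of 2-month WT (0.308), and that of Hes1 passed with edgeR (0.0471). With 3 libraries a group, differences of low genes such as Jag2 have wide intervals.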
